A study of Rattus norvegicus with 36 samples.

Results

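The comparison described here sets fully differentiated iAM-1 cells against the same cells while they still divide, in 8 of the 36 RNA sequencing libraries of the study. iAM-1 is a line of atrial heart muscle cells of newborn Wistar rats that is conditionally immortalised: a transferred large T antigen keeps the cells dividing for as long as doxycycline is in the medium. The 4 D9 libraries come from day 9 of differentiation, in medium without doxycycline. The 4 D0 libraries come from day 0, before differentiation began, when the cells proliferated with 100 ng/ml doxycycline. RNA of the construct was listed in both groups, and the basal medium and serum were the same on both days per the labels' protocols. A single line was studied, and whether the samples of a day were separate cultures is not said in the labels, so the p-values measure the spread between these samples, which may be technical. Genes of the sarcomere, of oxidative phosphorylation and of the cell cycle are set aside by name patterns, and the account turns to the other functions of the cell.

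A heart muscle cell that leaves the cell cycle changes more than its contractile apparatus. As background, the adult heart burns fatty acids, ketone bodies, lactate and branched-chain amino acids, keeps glycogen as a reserve, and buffers its ATP with creatine phosphate. A dividing cell makes nucleotides, serine-derived one-carbon units, membranes and a mitotic skeleton. Atrial cells are also endocrine cells, which pack natriuretic peptide into granules and answer to vagal signals through inhibitory G proteins.

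The libraries held 31.2 to 47.0 M reads at D9 and 29.6 to 85.8 M reads at D0 (M, 1000000), so that 1 read was worth 0.0105 to 0.0361 CPM (reads scaled by the authors to an effective library size). The large T antigen RNA measured 32.9, 33.9, 33.8 and 27.6 CPM in the D9 libraries, against 2732, 3021, 2973 and 3098 CPM in the D0 libraries, which matches the labels. Of 13 atrial markers tested, 12 were higher at D9 and 1, Nr2f2, lower, with summed levels of 43533 to 46996 CPM at D9 and 11221 to 11792 CPM at D0. The fibroblast markers tested, 5 of the 12 on the list, were all lower, with sums of 39.4 to 46.7 CPM at D9 and 587.6 to 629.2 CPM at D0. Markers of macrophages, of which 2 of 12 were tested, summed to 0.648 to 1.045 CPM at D9 and 5.10 to 6.39 CPM at D0, and those of Schwann cells and neurons (3 of 12) to 4.80 to 5.91 CPM at D9 and 28.9 to 37.1 CPM at D0. Of the endothelial markers (4 of 11) Kdr was higher and the other 3 lower (Vwf not under quantile normalisation), with sums, mostly from Kdr at D9, of 266.8 to 301.6 CPM at D9 and 63 to 70.8 CPM at D0, while Vwf measured 1.01 ± 0.35 CPM at D9 and 1.45 ± 0.0287 CPM at D0. Ventricular markers (3 of 6, all higher) summed to 384.3 to 524.3 CPM at D9 and 82.6 to 92.7 CPM at D0, and the epicardial ones (5 of 10, 1 higher and 4 lower) to 239.1 to 253.3 CPM at D9 and 279.6 to 290.4 CPM at D0. Of 10 smooth muscle and pericyte markers tested, of 12 on the list, 4 were higher and 5 lower (median -0.37; 1 and 6 with quantile normalisation), while their sum, most of it from Tagln and Acta2, was 21070 to 24872 CPM at D9 and 11879 to 12462 CPM at D0. The skeletal muscle markers (5 of 16) summed to 45.7 to 50.8 CPM at D9 and 246.5 to 271.6 CPM at D0. Markers not tested were either not listed in the authors' table, which holds genes with at least 1 read in every library, or stood under the low-level filter. The part of these markers in other results was not tested. In RNA of whole cultures, fewer cells of a type and less RNA per cell cannot be told apart. D9 library 2 stood apart from the other 3 of its day, with a mean chi-square per gene of 35.5 to 44.9 against them, where those 3 differed among themselves by 5.63 to 6.21. D0 library 4 stood apart less far, at 12.8 to 20.6 against the other 3 of its day, which differed by 5.45 to 9.42.

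Most genes changed. Of 11952 rat genes tested with limma on log2(CPM + 0.5), 9241 (77.3%) differed between the days at a Benjamini-Hochberg adjusted p under 0.05, with 9624 without D9 library 2 and 8926 without D0 library 4. Each log2 change given here is on that scale, which understates the change of genes at low levels, and a value after ± is an SD over 4 libraries. Higher at D9 were 4484 genes (37.5%) and lower 4757 (39.8%). At least 2-fold higher were 1299 genes (10.9%) and at least 2-fold lower 1770 (14.8%). The 4 D9 values lay wholly above or below the 4 D0 values for 8533 genes (71.4%). These shares are the background for every count of a group in CPM below, since a group with shares near them does what all genes do. The share of changed genes that were higher was 48.5% with CPM and 28.4% in the authors' TPM table (values corrected for transcript length). There 2708 genes were higher and 6830 lower (787 and 2534 at least 2-fold), which is the background for counts given in TPM. The median log2 change of all genes was -0.34 in TPM and -0.02 in CPM. CPM per library summed to 1082475 to 1132075 at D9 and 899790 to 907717 at D0. The part of this difference in the shift between CPM and TPM was not tested. Genes named by the 3 patterns set aside numbered 77 for the sarcomere (43 at least 2-fold higher, 11 lower), 116 for oxidative phosphorylation (71 higher, 1 lower) and 483 for the cell cycle (4 higher, 330 lower). Outside them stood 11276 genes, of which 1181 were at least 2-fold higher and 1428 at least 2-fold lower.

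**Figure D1:**
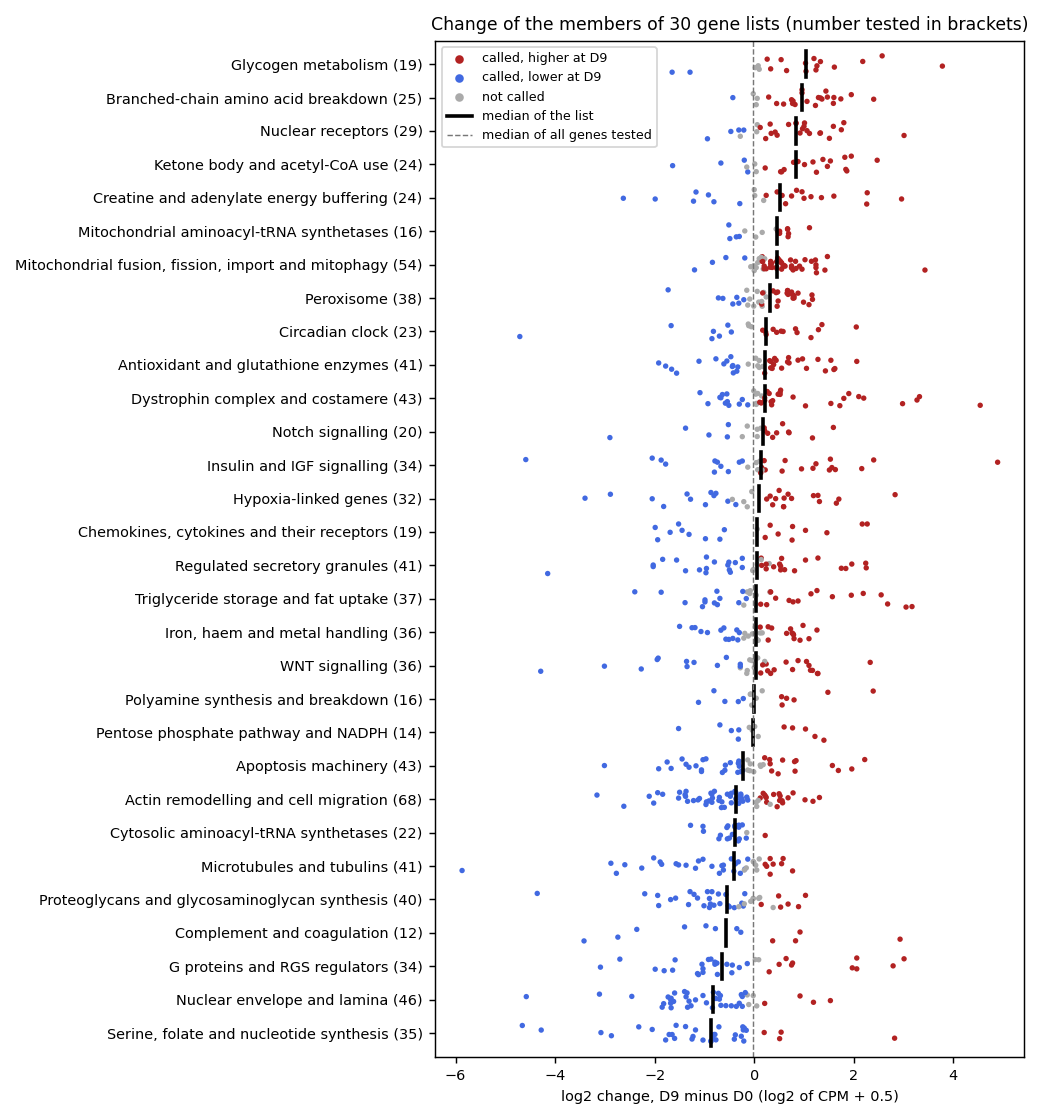
Change between D9 and D0 of the members of 30 gene lists, as log2(CPM + 0.5) at D9 minus that at D0 on the x axis, with 1 point per gene, a black bar for each list's median and a dashed line for the median of all genes tested (-0.02). Glycogen metabolism (median 1.03) and branched-chain amino acid breakdown (0.96) stand at the top, serine, folate and nucleotide synthesis (-0.87) and the nuclear envelope (-0.83) at the bottom. List members with cell cycle names are plotted. Without them the medians were -0.84 for serine, folate and nucleotide synthesis and -0.46 for the nuclear envelope.

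The largest rises outside the sets included genes known from striated muscle. Kcng2, a modifier subunit of voltage-gated potassium channels, measured 32.6, 43.8, 33.7 and 30.7 CPM in the D9 libraries, against 0.0639, 0.116, 0.0304 and 0.0209 CPM in the D0 libraries, which is 1 to 11 reads each (log2 5.99). Sh3kbp1, an adaptor that links receptors to endocytosis, measured 247, 247, 267 and 271 CPM at D9, against 5.31, 6.20, 5.13 and 6.85 CPM at D0 (log2 5.35, SE 0.08, adjusted p = 3.1e-14). Corin, the protease that cuts pro-atrial natriuretic peptide, averaged 75.2 ± 2.69 CPM at D9 and 1.55 ± 0.517 CPM at D0 (SD, n = 4 each), with a clear gap between the days (log2 5.24, SE 0.15). For Kcng2, Sh3kbp1 and Corin the lowest D9 library stood many times above the highest D0 library. Dhrs7c, a dehydrogenase of the muscle sarcoplasmic reticulum, averaged 41.1 ± 2.75 CPM at D9 and 0.804 ± 0.176 CPM at D0 (SD, n = 4 each). The other 11 of the 15 largest rises were Igfbp5, Txlnb, Lama2, Smim5, Apobec2, Slc16a12, Sbk2, Abi3bp, Tmem182, Eda and Sema7a, with log2 changes between 4.27 and 4.89. Several of them are known from striated muscle, among them Txlnb, Apobec2, the atrial kinase gene Sbk2 and Tmem182. Slc16a12 carries creatine across the cell membrane. Tmem182 had at most 3 reads in each D0 library (0.0213, 0.0105, 0.0304 and 0.0628 CPM), against 9.44, 9.78, 9.10 and 11.2 CPM at D9, and its change on this scale (log2 4.29) is set in part by the 0.5 CPM added. For Abi3bp, D9 library 2 lay far from its day, at 32.8 CPM, against 51.3 to 55.6 CPM in the other 3 D9 libraries and 1.44 to 2.41 CPM at D0.

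The largest falls still held genes of cell division that the name patterns missed. Ns5atp9, the gene of a PCNA-binding factor, measured 0.523, 0.18, 0.297 and 0.394 CPM at D9, against 72.9, 76.4, 74.9 and 73.2 CPM at D0 (log2 -6.48). Cep72, Traip, Aunip, Arhgef39, Anlnl1 and Gas2l3, with log2 changes between -5.96 and -4.90, are likewise known from centrosomes, replication or cytokinesis, or carry the name of such a gene. The remaining 8 of the 15 are not. Erfe, which encodes the secreted hormone erythroferrone, measured 0.0348, 0.0361, 0.189 and 0.255 CPM at D9, against 35.1, 31.5, 30.8 and 30.8 CPM at D0 (log2 -5.71, SE 0.14). Prph, an intermediate filament gene of neurons, averaged 0.299 ± 0.228 CPM at D9 and 27.0 ± 3.50 CPM at D0. Emp1, a membrane protein gene, fell to 23.0 ± 0.548 CPM at D9, against 566 ± 18.7 CPM at D0 (SD, n = 4 each), with the smallest adjusted p of the 15 (1.9e-15). Col1a1 and Fbln1, a collagen and a matrix gene, fell (log2 -5.49 and -4.76), and both are among the fibroblast markers above, whose part in other results was not tested. Xkr5, the kinase gene Pask and Slfn13 complete the 8, with log2 changes of -5.68, -4.83 and -4.75.

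**Figure D2:**
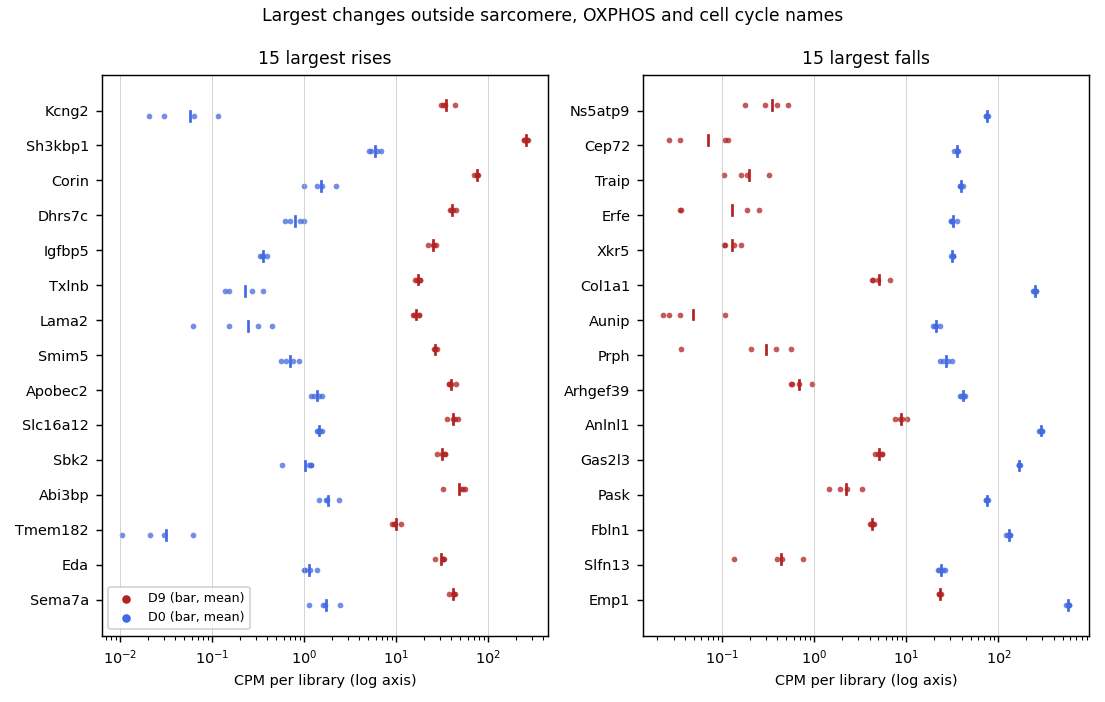
CPM in each library (log axis) of the 15 largest rises (left) and the 15 largest falls (right) outside the names of sarcomere, oxidative phosphorylation and cell cycle genes, with D9 in red above D0 in blue and a bar for each mean. In no row do the points of the 2 days overlap, which the rule that chose these genes required. The lowest points are single reads, such as Tmem182 at D0 (0.0105 CPM) and Aunip at D9 (0.0232 CPM).

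Breakdown of the branched-chain amino acids leucine, isoleucine and valine was the list with the highest share of risers. Of 25 members tested, 21 were higher (84%, against 37.5% of all genes), 12 of them at least 2-fold, 1 was lower and 3 were not called, and the median log2 change was 0.96. Klf15, a transcription factor that in mouse muscle and heart switches on this pathway, measured 13.3, 14.5, 15.4 and 16.2 CPM in the D9 libraries, against 2.71, 1.97, 2.28 and 2.74 CPM in the D0 libraries (log2 2.40, SE 0.12, adjusted p = 9.1e-10). Its 4 D9 values lay above all 4 D0 values. Bckdha, a subunit of the dehydrogenase complex that commits the carbon chain to breakdown, averaged 104 ± 4.75 CPM at D9 and 34.1 ± 2.02 CPM at D0 (log2 1.59). Its partner subunit Bckdhb rose less (log2 0.75), and the core subunit Dbt was not called (log2 -0.02, adjusted p = 0.768). Of the regulators of the complex, the inhibiting kinase Bckdk rose by log2 0.45, and the activating phosphatase Ppm1k was not called (log2 0.06, adjusted p = 0.385). Further down, Acad8 and Hibadh of the valine branch (log2 1.74 and 1.60) and Ivd, Mccc1 and Mccc2 of the leucine branch (log2 1.44, 1.47 and 1.36) rose. Acat1, the mitochondrial thiolase shared with ketone body use, measured 372, 403, 393 and 389 CPM at D9, against 100.0, 103, 105 and 94.8 CPM at D0. At the first step, the cytosolic transaminase Bcat1 was the only member that fell (64.2, 89.6, 64.8 and 61.5 CPM at D9, against 93.1, 93.7, 95.7 and 92.0 CPM at D0, log2 -0.43), and the mitochondrial Bcat2 rose by log2 0.29 in CPM but stood at -0.04 in TPM. The 2 days nearly touch for Bcat1, since D9 library 2 (89.6 CPM) lay just under the lowest D0 library (92.0 CPM).

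Pyruvate entry and glycogen genes moved the same way. Of 24 genes of ketone body and acetyl-CoA use, 17 were higher, 11 of them at least 2-fold, 4 were lower and 3 not called (median 0.84). Pdk2, a kinase that switches pyruvate dehydrogenase off, rose most, with 145, 124, 144 and 145 CPM at D9, against 25.4, 25.8, 22.4 and 25.6 CPM at D0 (log2 2.47, SE 0.07). The dehydrogenase's own subunits Pdhb and Dlat (log2 1.53 and 1.47), its phosphatase Pdp1 (log2 1.01) and the carrier genes Mpc1 and Mpc2 (log2 1.25 and 1.18) rose too, so the enzyme, its brake and its release were all higher. Of the enzymes that use ketone bodies, Bdh1 and Oxct1 fell (log2 -0.67 and -0.20), while the cytosolic Bdh2 rose by log2 1.82. In the glycogen list 14 of 19 members were higher, 10 at least 2-fold, 2 lower and 3 not called (median 1.03). Pygm, the muscle form of glycogen phosphorylase, measured 40.2, 34.8, 38.3 and 39.1 CPM at D9, against 2.36, 2.41, 1.97 and 2.53 CPM at D0 (log2 3.78, SE 0.09, adjusted p = 1.4e-12). Ppp1r3c, which brings a phosphatase to glycogen and so favours its synthesis, measured 102, 117, 111 and 104 CPM at D9, against 14.4, 17.3, 20.1 and 20.2 CPM at D0. Genes of breakdown and of synthesis were thus both among the risers, while the synthase Gys1 itself rose by only log2 0.26 (-0.07 in TPM) and Ugp2, which makes its substrate, was not called (log2 0.02, adjusted p = 0.688). Of the phosphorylase kinase subunits, the muscle form Phka1 rose (log2 1.24) and the liver form Phka2 fell (log2 -1.29).

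**Figure D3:**
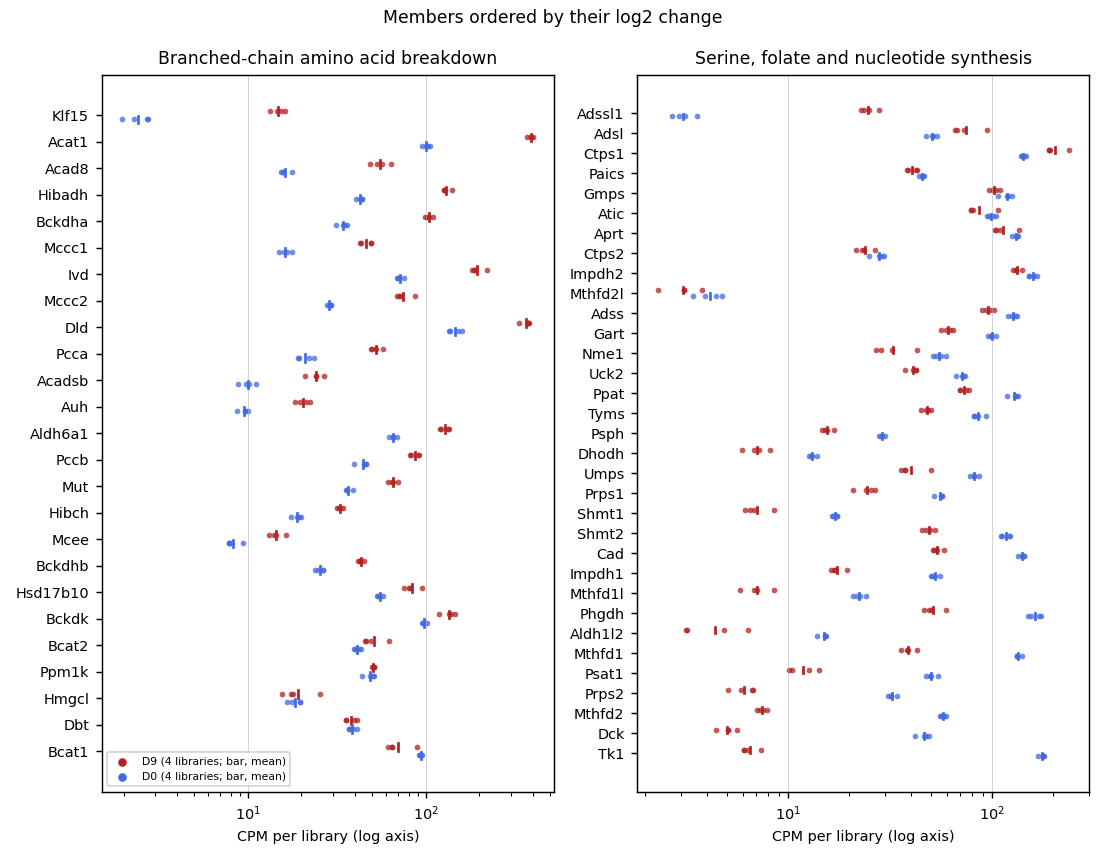
CPM in each library (log axis) of tested members of the lists for branched-chain amino acid breakdown (left, 25 of 25 genes) and for serine, folate and nucleotide synthesis (right, 33 of 35 genes), ordered by log2 change, with D9 in red above D0 in blue and a bar for each mean. On the left 21 genes were called higher at D9 and 1 lower; of those on the right 3 were called higher and 30 lower.

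The list for fat storage and uptake split. Of 37 members, 17 were higher and 13 lower, with a median (0.04) near that of all genes, and in TPM the split was 12 higher and 20 lower. Acacb, which makes malonyl-CoA at the mitochondrial surface, measured 72.3, 77.2, 73.3 and 75.3 CPM at D9, against 8.54, 7.51, 8.78 and 6.76 CPM at D0 (log2 3.17, SE 0.08). The lipid droplet coat gene Plin4, the lipase inhibitor G0s2, the lipase activator Abhd5 and the phosphatidate phosphatase Lpin1 rose, by log2 2.68, 2.55, 1.95 and 2.19. Cd36, the fatty acid uptake receptor of adult heart, averaged 5.39 ± 1.09 CPM at D9 and 0.203 ± 0.0734 CPM at D0, so it rose (log2 3.05) and remained low. Scd and Scd2, which desaturate new fatty acids, fell (log2 -1.87 and -1.04), and the droplet assembly gene Bscl2 fell (log2 -1.39). Energy buffering genes numbered 14 higher, 7 lower and 3 not called of 24 (median 0.51), with 7 higher and 4 lower by at least 2-fold. In TPM 12 were higher and 9 lower, 5 and 6 of them at least 2-fold (median 0.18). Prkag2, a regulatory subunit of the AMP-activated kinase, measured 439, 388, 447 and 435 CPM at D9, against 55.4, 56.6, 50.5 and 56.0 CPM at D0 (log2 2.96, adjusted p = 1.6e-13). Ckmt2, the sarcomeric mitochondrial creatine kinase, rose to 13.3 ± 3.89 CPM at D9, against 2.33 ± 0.513 CPM at D0, and the AMP deaminase Ampd3 rose by log2 2.26. Muscle creatine kinase Ckm stayed at a few CPM on both days and was not called (4.08 ± 0.622 CPM at D9 and 3.55 ± 0.87 CPM at D0, adjusted p = 0.285). Gatm, the first enzyme of creatine synthesis, and adenosine deaminase Ada fell (log2 -1.99 and -2.63).

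Genes that shape, import into and clear mitochondria rose in breadth rather than in size. Of 54 tested, 41 were higher (75.9%), 4 lower and 9 not called, but only 9 rose at least 2-fold (16.7%, against 10.9% of all genes), with a median of 0.46. In the TPM table the split was 28 higher and 13 lower. Pink1, the kinase that marks damaged mitochondria for removal, stood far above the rest of the list, with 257, 275, 262 and 254 CPM at D9, against 22.4, 25.7, 24.6 and 23.1 CPM at D0 (log2 3.43, SE 0.06, adjusted p = 3.7e-14). The 2 days stood far apart for this gene. Among the next were the crista organiser genes Chchd3 and Immt (log2 1.47 and 1.24), the fission factor Mief2 (1.42), the import chaperone Hspa9 (1.25) and the fusion gene Mfn2 (1.23). The import subunit Timm17b fell (log2 -1.20) while its paralog Timm17a rose (log2 0.47). In the peroxisome list 21 of 38 members were higher, 7 lower and 10 not called (median 0.31), and in TPM 13 and 13.

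Nuclear receptors and their cofactors were also mostly higher. Of 29 tested, 22 were higher, 10 at least 2-fold, 4 lower and 3 not called (median 0.84), and in TPM 16 were higher and 8 lower. Thrb, the beta receptor for thyroid hormone, measured 107, 96.8, 111 and 114 CPM at D9, against 11.8, 13.6, 12.8 and 13.2 CPM at D0 (log2 3.01, SE 0.07, adjusted p = 7.6e-13). Nr3c2, the mineralocorticoid receptor, measured 58.9, 38.2, 57.0 and 58.6 CPM at D9, against 15.2, 13.6, 14.8 and 15.2 CPM at D0 (log2 1.80). Its D9 libraries spread from 38.2 to 58.9 CPM and all lay above D0. The metabolic receptors Esrra and Ppara rose by log2 1.51 and 1.59; D0 library 4 held 18.9 CPM of Esrra where the other D0 libraries held 34.0 to 42.0 CPM. The alpha thyroid hormone receptor Thra, Rxra, Rxrb, Rarb and Esrrg rose by log2 1.11, 1.01, 1.32, 1.33 and 1.06. The members that fell were Nr4a1, Rarg, Nr2f2 and Ppard (log2 -0.94, -0.47, -0.31 and -0.21).

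Among the clock genes, 13 of 23 were higher, 7 lower and 3 not called. In TPM, where 2708 of all genes were higher and 6830 lower, 8 clock genes were higher and 11 lower. Hlf, Dbp and Tef, which are among the factors that bind the D-box sequence, rose by log2 2.05, 1.36 and 1.29. Tef measured 149, 145, 144 and 145 CPM at D9, against 63.5, 54.8, 59.9 and 59.0 CPM at D0. The repressor genes Nr1d1 and Nr1d2 rose (log2 0.83 and 1.14), while Arntl, the activator they repress, fell to 9.79, 9.13, 9.10 and 9.07 CPM at D9, against 16.0, 15.1, 15.2 and 15.3 CPM at D0 (log2 -0.70). Timeless and Tipin, known in mammals mainly from replication forks, fell (log2 -4.71 and -1.67). The hour of harvest is not given in the labels used here.

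The promoters of 4 of these risers are printed because each holds the letters CACGTG, the E-box of clock, MYC and TFE factors, shown in capitals. Each line gives the 250 bases before the RefSeq start site, 5′ to 3′ on the gene's strand, in build GRCr8. Pink1 lies at chr5:155825951-155826200 on the minus strand, with the motif starting 161 and 98 bases before the start site. Ppp1r3c lies at chr1:243878528-243878777 on the minus strand (54 bases before), Klf15 at chr4:124522765-124523014 on the plus strand (101 bases before) and Tef at chr7:115206577-115206826 on the plus strand (198 bases before).
Pink1: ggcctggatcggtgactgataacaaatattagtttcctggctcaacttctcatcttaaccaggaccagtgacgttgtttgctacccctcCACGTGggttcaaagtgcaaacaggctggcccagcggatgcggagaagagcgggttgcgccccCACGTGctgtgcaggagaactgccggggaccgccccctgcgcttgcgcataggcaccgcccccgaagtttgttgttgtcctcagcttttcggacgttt
Ppp1r3c: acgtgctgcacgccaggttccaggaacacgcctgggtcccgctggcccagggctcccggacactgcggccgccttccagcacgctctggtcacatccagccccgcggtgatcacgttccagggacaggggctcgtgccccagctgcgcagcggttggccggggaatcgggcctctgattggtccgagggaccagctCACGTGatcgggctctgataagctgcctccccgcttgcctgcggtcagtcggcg
Klf15: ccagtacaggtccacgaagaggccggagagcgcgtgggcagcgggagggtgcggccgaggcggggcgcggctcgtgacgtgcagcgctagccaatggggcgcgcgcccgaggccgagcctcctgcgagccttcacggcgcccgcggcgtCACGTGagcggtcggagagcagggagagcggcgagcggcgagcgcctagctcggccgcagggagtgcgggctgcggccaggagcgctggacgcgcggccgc
Tef: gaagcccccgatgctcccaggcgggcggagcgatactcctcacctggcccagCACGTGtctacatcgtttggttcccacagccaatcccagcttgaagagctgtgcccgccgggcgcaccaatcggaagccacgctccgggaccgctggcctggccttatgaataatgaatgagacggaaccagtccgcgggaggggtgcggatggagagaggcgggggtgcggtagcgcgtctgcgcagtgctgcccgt
CACGTG is its own reverse complement, so both strands were searched at once. It occurred in 824 of 8633 promoters of tested genes (9.54%, over 250 bases before to 50 after the start). Over the gene lists the share went both ways: it was 4 of 17 promoters (23.5%) in the glycogen list and in the clock list and 8 of 44 (18.2%) in the mitochondrial list, but 1 of 20 (5%) in the branched-chain list, and 0 of 22 and 0 of 20 in the nuclear receptor and energy buffering lists. In the polyamine list it was 4 of 15 (26.7%), where Oaz1, Srm and Dohh were not called and Eif5a was lower. Among genes at least 2-fold higher at D9 it occurred in 65 of 917 promoters (7.09%), among those at least 2-fold lower in 100 of 1311 (7.63%) and among genes not called in 184 of 1825 (10.1%). The letters of a promoter are a description and were not tested. The extended half-site TCAAGGTCA bound by ERR factors such as Esrra occurred in 17 of the 8633 promoters (0.197%), among them 1 of 44 in the mitochondrial list (2.27%) and 1 of 27 in the iron list (3.7%), and in none of the other lists. The D-box TTATGNAA occurred in 151 of 8633 promoters (1.75%) and in 1 of 17 clock gene promoters.

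Genes that make building blocks were mostly lower. Of 35 members of serine, folate and nucleotide synthesis, 31 were lower (88.6%, against 39.8% of all genes), 16 at least 2-fold, 4 were higher and all were called (median -0.87). Leaving out the 3 members that carry a cell cycle name left 28 of 32 lower. Tk1, thymidine kinase, measured 6.37, 7.40, 6.08 and 6.10 CPM in the D9 libraries, against 179, 177, 178 and 168 CPM in the D0 libraries (log2 -4.66, SE 0.07, adjusted p = 1.9e-14). It was many times lower in every D9 library than in any D0 library. Dck, which salvages deoxynucleosides, and Mthfd2, the mitochondrial folate enzyme of dividing cells, fell (log2 -3.08 and -2.87). Serine synthesis fell at each of its 3 steps, Phgdh (log2 -1.65), Psat1 (log2 -2.05) and Psph (log2 -0.87). The purine synthesis genes Gmps and Impdh2 fell (log2 -0.20 and -0.26). Adssl1, the muscle adenylosuccinate synthase of the purine nucleotide cycle, was the only member at least 2-fold higher, with 24.8, 27.8, 23.6 and 22.8 CPM at D9, against 3.56, 2.69, 3.13 and 2.91 CPM at D0 (log2 2.82), while its widely expressed paralog Adss fell (log2 -0.40). Adsl and Ctps1 also rose, by log2 0.54 and 0.51.

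The enzymes that charge tRNA were mostly lower where they serve the cytosol. Of 22 cytosolic synthetases and their partners, 20 were lower and 1, Qars, was higher (log2 0.22, but -0.11 in TPM), with a median of -0.39. Only 3 fell by 2-fold or more, Vars, Yars and Wars, at -1.28, -1.03 and -1.02 on the log2 scale. Of 16 mitochondrial synthetases, 8 were higher, 4 lower and 4 not called (median 0.46), with Fars2 the largest riser (13.7 ± 0.698 CPM at D9 and 6.07 ± 0.228 CPM at D0, log2 1.11). In TPM the cytosolic set had 0 higher and 21 lower, and the mitochondrial set 6 higher and 6 lower.

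Nuclear envelope genes were mostly lower. Of 46 members, 38 were lower, 21 at least 2-fold, 4 higher and 4 not called (median -0.83). Without names that the cell cycle pattern holds, 17 of 25 were lower, 7 of them at least 2-fold, and the median was -0.46. Lmnb1, a B-type lamin, measured 7.70, 10.7, 9.80 and 7.31 CPM at D9, against 222, 221, 221 and 218 CPM at D0 (log2 -4.58, SE 0.10, adjusted p = 5.3e-13). Lmnb2, the other B-type lamin, measured 10.4, 8.33, 9.37 and 9.35 CPM at D9, against 99.8, 87.9, 96.1 and 60.6 CPM at D0 (log2 -3.11). D0 library 4 was the lowest of its day for Lmnb2 and still lay well above every D9 library. Lmna, the A-type lamin of differentiated cells, fell far less, to 292 ± 37.3 CPM at D9, against 566 ± 44.2 CPM at D0 (log2 -0.96). The lamin receptor Lbr fell (log2 -1.67), and the pore scaffold genes Nup85, Nup43, Nup35 and Nup155 (log2 -2.46, -1.85, -1.82 and -1.73). Syne1, whose muscle forms tie nuclei to the cytoskeleton, went the other way, with 369, 316, 347 and 374 CPM at D9, against 122, 126, 113 and 125 CPM at D0 (log2 1.53), while Syne2 and Syne3 fell (log2 -1.35 and -1.68).

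Microtubule and actin genes were mostly lower as well. Of 41 microtubule genes 26 were lower, 14 at least 2-fold, and 8 higher, none of these 2-fold (median -0.41). Outside the cell cycle pattern 15 of 30 were lower, 4 at least 2-fold, and 8 higher (median -0.18). Stmn1, which takes tubulin dimers out of polymerisation, measured 4.77, 6.10, 3.92 and 3.27 CPM at D9, against 280.0, 280.0, 290.0 and 293 CPM at D0 (log2 -5.87, SE 0.13). Tubulins share much sequence and their reads can be split between copies, so their single values are uncertain. Of these, Tubb6 measured 39.5, 35.5, 39.2 and 35.8 CPM at D9, against 284, 281, 279 and 273 CPM at D0 (log2 -2.88), and the more abundant Tubb5 and Tuba1b fell (log2 -1.89 and -1.86). Ttl, which restores tyrosine to tubulin ends, rose (log2 0.77). Its counterpart Vash1, which removes that tyrosine, fell (log2 -1.57). In the actin remodelling list 45 of 68 were lower, 18 higher and 5 not called (median -0.37). Capg, which caps filaments, Limk1, the kinase that inhibits cofilin, the Arp2/3 subunit Arpc1b and the coronin Coro1c fell (log2 -3.16, -2.02, -1.94 and -1.39). Actb, the cytoplasmic beta actin, fell in all libraries, to 3464, 3522, 3584 and 3345 CPM at D9, against 7394, 7576, 7809 and 7668 CPM at D0 (log2 -1.13), with the reservation that actins share reads. The exceptions include Fhod3, a formin known from cardiac sarcomeres, which rose to 596 ± 9.61 CPM at D9, against 240.2 ± 8.77 CPM at D0.

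The genes that link the cytoskeleton to the basement membrane were more often higher than lower in CPM. Of 43 genes of the dystrophin complex and costamere, 25 were higher, 11 at least 2-fold, 12 lower and 6 not called (median 0.21); TPM gave 15 higher and 20 lower, and quantile normalisation 18 and 18. The 2-fold changes themselves were 11 higher and 1, Dtnb, lower. Lama2, the laminin chain that dystroglycan binds in muscle, measured 15.6, 17.7, 15.3 and 17.6 CPM at D9, against 0.32, 0.453, 0.152 and 0.0628 CPM at D0 (log2 4.54). Sgca, the muscle sarcoglycan, measured 46.3, 41.2, 43.4 and 43.0 CPM at D9, against 3.81, 4.01, 3.43 and 4.42 CPM at D0 (log2 3.32, SE 0.09). Sntb1, a syntrophin that attaches signalling proteins to dystrophin, measured 34.7, 24.1, 33.6 and 35.3 CPM at D9, against 3.22, 3.78, 2.34 and 2.20 CPM at D0. These 3 were low or nearly unread in dividing cells, whereas Dmd, dystrophin itself, rose to 700.2 ± 38.3 CPM at D9, against an already high 163 ± 9.35 CPM at D0 (log2 2.10). Lims2, an adaptor of integrin-linked kinase, rose by log2 2.98, and the integrin chains Itga7 and Itgb1 fell (log2 -0.58 and -0.51).

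Proteoglycan genes were mostly lower: 26 of 40, with 6 higher and 8 not called (median -0.55). Sdc1, a heparan sulphate carrier of epithelia and proliferating cells, measured 0.453, 0.253, 0.189 and 0.441 CPM at D9, against 16.5, 15.7, 18.9 and 14.9 CPM at D0 (log2 -4.36), and its relative Sdc2 rose by log2 1.03. Cspg4, a proteoglycan of pericytes and progenitors, fell (log2 -1.92), and the small matrix proteoglycan Bgn (log2 -1.01). The carbohydrate sulphotransferase genes Chst2, Chst11, Chst3 and Chst12 fell (log2 -1.94, -1.58, -1.32 and -1.29). Among the complement and coagulation genes, 8 of 12 were lower and 4 higher. The plasminogen activator Plat fell (log2 -2.74), as did the receptor Plaur (log2 -1.40). The complement shields parted, with Cd59 higher by log2 2.93 and Cd55 lower (log2 -2.36). The fibroblast markers given above fell over the same days, and their part in these matrix changes was not tested.

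In the insulin and IGF list 17 of 34 were higher and 11 lower (12 and 20 in TPM). Igf1, the growth factor, measured 0.314, 0.758, 0.243 and 0.533 CPM at D9, against 21.5, 20.8, 22.3 and 24.3 CPM at D0 (log2 -4.59, SE 0.16). Igfbp5, which binds it outside the cell, measured 25.8, 22.0, 27.2 and 25.3 CPM at D9, against 0.362, 0.348, 0.334 and 0.398 CPM at D0 (log2 4.89, SE 0.11). The 2 genes lay in opposite order, with Igf1 low at D9 and Igfbp5 low at D0. The receptor Igf1r was not called (72.0 ± 3.82 CPM at D9 and 70.3 ± 3.63 CPM at D0, adjusted p = 0.583), while the insulin receptor Insr and the adaptors Irs1 and Grb14 rose by log2 1.24, 1.53 and 2.16. Pik3r1, a regulatory subunit of the kinase below them, measured 180.0, 177, 182 and 179 CPM at D9, against 33.8, 35.0, 32.7 and 32.9 CPM at D0 (log2 2.40). The binding protein Igfbp4 fell (log2 -1.78), and Pappa, the protease that cuts it, rose by log2 1.63.

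**Figure D4:**
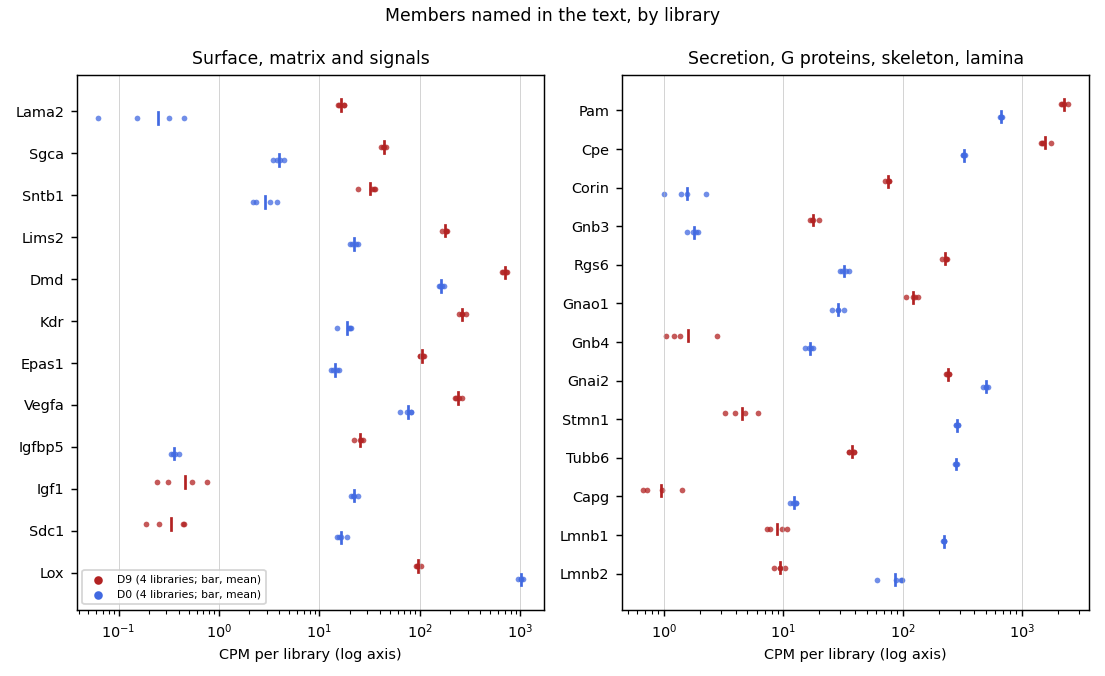
CPM in each library (log axis) of genes described in the text, with D9 in red above D0 in blue and a bar for each mean; the left panel holds surface, matrix and signalling genes and the right panel secretion, G protein, skeleton and lamina genes. Igfbp5 and Igf1 lie in opposite order, and no gene shown has a D9 point inside the range of its D0 points.

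In the WNT list 16 of 36 genes were higher, 12 lower and 8 not called (median 0.03, against -0.02 over all genes tested), 7 at least 2-fold higher and 8 at least 2-fold lower. TPM gave 10 higher and 20 lower, with 1 and 8 at least 2-fold. Wnt4 measured 0.732, 0.902, 0.351 and 0.673 CPM at D9, against 21.4, 21.8, 23.4 and 21.3 CPM at D0 (log2 -4.29), whereas another ligand gene, Wnt2b, rose to 6.84 ± 0.654 CPM at D9, against 2.57 ± 0.458 CPM at D0 (log2 1.27). Rspo1, which potentiates WNT signals, and the inhibitors Nkd2 and Notum fell (log2 -2.27, -3.01 and -1.93), and Axin2, a common target of beta-catenin (log2 -0.74). The receptor Fzd1 rose (log2 2.33) as Fzd4 and Fzd2 fell (log2 -1.35 and -1.21), and beta-catenin itself, Ctnnb1, was not called (log2 -0.05, adjusted p = 0.333). Notch genes were 10 of 20 higher and 5 lower (5 and 7 in TPM). Nrarp, a target and brake of the pathway, fell (log2 -2.90) and Notch1 (log2 -1.38), whereas another target, Hes1, measured 105, 119, 118 and 106 CPM at D9, against 52.2, 47.8, 48.6 and 49.6 CPM at D0 (log2 1.17).

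Genes linked to oxygen sensing and vessel growth did not move as a block: 16 of 32 were higher and 12 lower (11 and 15 in TPM). Epas1, the HIF-2 alpha factor, measured 101, 99.5, 107 and 110.0 CPM at D9, against 13.0, 15.6, 13.5 and 14.8 CPM at D0 (log2 2.83, SE 0.07), and Hif1a rose by log2 0.43. Vegfa, the vessel growth factor, measured 243, 260.0, 227 and 222 CPM at D9, against 81.6, 81.5, 75.1 and 63.7 CPM at D0. Kdr, its main receptor on endothelium, measured 247, 286, 260.0 and 262 CPM at D9, against 15.0, 19.9, 20.4 and 19.7 CPM at D0 (log2 3.79, SE 0.09). The other endothelial markers that were tested, Flt1, Egfl7 and Vwf, were lower (log2 -1.48, -1.54 and -0.40), though the call of Vwf was lost under most alternatives and its sign turned under quantile normalisation (0.20). The vasodilator peptide gene Adm rose (log2 1.70). Lower were Lox, the matrix cross-linker (93.9, 90.7, 102 and 94.8 CPM at D9, against 946, 1011, 1014 and 1062 CPM at D0), and Car9, Plod2 and P4ha2 (-2.89, -1.82 and -1.35 on the log2 scale). Of 19 cytokine genes 9 were higher and 9 lower. Receptors of the interleukin-6 family parted: Lifr measured 94.2, 84.2, 92.6 and 103 CPM at D9, against 18.0, 22.3, 19.4 and 21.9 CPM at D0 (log2 2.17), while Osmr fell (log2 -1.99), Il6r (log2 -0.98) and their shared chain Il6st (log2 -0.69).

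The granule list was balanced, with 18 of 41 higher and 18 lower (11 and 21 in TPM), and it held both risers and fallers of the same gene families. Pam, which amidates peptides and is the main membrane protein of atrial granules, measured 2133, 2438, 2267 and 2182 CPM at D9, against 663, 671, 659 and 679 CPM at D0 (log2 1.75, SE 0.05). Cpe, a carboxypeptidase that trims prohormones, measured 1456, 1765, 1502 and 1463 CPM at D9, against 318, 319, 336 and 329 CPM at D0 (log2 2.24). Per length, Cpe stood at 1411 TPM at D9 and 375 TPM at D0, and Pam at 851 TPM at D9 and 318 TPM at D0. Rab3b, Ptprn2 and Syt1 rose by log2 2.25, 1.96 and 1.84. Ptprn, a granule membrane gene and the paralog of Ptprn2, went down to 0.453, 1.48, 1.27 and 1.04 CPM at D9, against 26.1, 24.8, 28.0 and 26.0 CPM at D0 (log2 -4.15), and Scg2, a granin of neuroendocrine granules, fell (log2 -1.84).

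Of 34 G protein genes, 22 were lower, 11 of them at least 2-fold, and 10 higher (median -0.64), and the risers included subunits known from vagal signalling in the atrium. Gnao1, the alpha-o subunit, measured 134, 107, 122 and 126 CPM at D9, against 28.8, 32.3, 25.7 and 28.6 CPM at D0 (log2 2.06). Rgs6, which in mouse atrial and nodal cells ends muscarinic signals, measured 230.0, 212, 236 and 231 CPM at D9, against 31.3, 35.5, 29.8 and 33.7 CPM at D0 (log2 2.79, SE 0.06), and its obligate partner Gnb5 rose by log2 0.75. Gnb3 measured 19.8, 17.7, 16.7 and 17.3 CPM at D9, against 1.94, 1.57, 1.85 and 1.74 CPM at D0 (log2 3.01). Gnao1, Rgs6 and Gnb3 were each several times higher in every D9 library. The inhibitory subunits Gnai2 and Gnai3 fell (log2 -1.05 and -0.79), Gnb4 (log2 -3.09) and the receptor kinase Grk5 (log2 -1.03), with Grk3 higher by log2 2.06. Despite these changes Gnai2 still had more transcripts per length than Gnao1 at D9, 208 against 113 TPM, and at D0 543 against 33.4 TPM.

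Cell death genes fell more often than they rose, with 22 of 43 lower, 13 higher and 8 not called (median -0.23). The necroptosis kinase Ripk3 measured 7.21, 8.41, 6.18 and 8.09 CPM at D9, against 66.1, 61.1, 65.5 and 60.9 CPM at D0 (log2 -3.01, SE 0.09). Genes of the death receptor arm fell with it, Tnfrsf10b, Casp8, Bid and Fadd (log2 -1.92, -1.75, -1.67 and -1.31), and Apaf1, the apoptosome scaffold (log2 -1.45). In contrast, the pro-death BH3 genes Bcl2l11 (BIM) and Bmf rose, though Bid, which is also such a gene, fell as given above. Values of the other BH3 genes on the list are not given. Bcl2l11 measured 137, 125, 142 and 134 CPM at D9, against 26.8, 28.0, 29.1 and 29.9 CPM at D0 (log2 2.22), and Bmf rose by log2 1.96. Their opponents Bcl2l1 and Bcl2l2 rose less, by log2 0.82 and 0.84, and Bax was not called (log2 0.18, adjusted p = 0.104).

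Antioxidant genes changed in both directions. Of 41, 21 were higher, 14 lower and 6 not called (median 0.21), and in TPM 12 were higher and 20 lower. Among enzymes of mitochondria, Sod2 averaged 204 ± 10.5 CPM at D9 and 48.5 ± 1.91 CPM at D0 (SD, n = 4 each; log2 2.06), and Txn2 and Txnrd2 rose by log2 1.62 and 0.69, while Prdx5 was not called (log2 0.17). Prdx4, the peroxiredoxin of the endoplasmic reticulum, and Gpx7, a peroxidase of the same compartment, fell (log2 -1.92 and -1.66). Gpx1, the cytosolic and mitochondrial peroxidase, fell to 20.4, 18.3, 17.6 and 18.2 CPM at D9, against 55.8, 53.4, 58.2 and 55.2 CPM at D0. Gpx3, a secreted peroxidase, stood at 4334 TPM at D9 and 1879 TPM at D0, and rose in CPM by log2 1.54. Hmox1, Gclc, Gclm, Srxn1 and Nqo1, which are among the known targets of the factor NRF2, fell (log2 -0.77, -0.61, -0.44, -0.55 and -0.42). They were chosen after their values were seen, and other targets of the factor were not counted. Nfe2l2, the gene of the factor itself, rose by log2 0.70.

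Lists with shares of higher and lower genes and medians close to the background included iron and haem (14 of 36 higher, 13 lower, median 0.04). The pentose phosphate pathway (5 of 14 higher, 5 lower, median -0.02) and polyamines (6 of 16 higher, 5 lower, median 0.00) were others. Within these lists Fth1, the ferritin chain that oxidises iron, rose by log2 1.10, and Smox and Sat1, which break polyamines down, rose by log2 2.39 and 1.48.

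Ratios within pairs of related genes do not depend on the scaling of a library, apart from the 0.5 CPM added. The 20 pairs set a gene over a related one, in many but not all of them a form known from muscle or mature tissue. Both genes were measured in 19 pairs. By a two-sided exact permutation test of 4 libraries against 4, 14 ratios were higher at D9, 3 lower and 2 not called after adjustment over the 19, each called pair with p = 0.0286 (adjusted p = 0.0319), the smallest this design allows. A pair reaches that p when its D9 ratios do not overlap its D0 ratios. The values of 71.4% of all genes tested did not overlap either. The share among other pairs of genes was not computed, so the count of called pairs has no background. The pairs were also chosen with earlier results of these data known, so the count cannot show a shift towards muscle forms. The log2 ratio of Lmna to Lmnb1 was 4.97 ± 0.17 at D9 and 1.35 ± 0.10 at D0 (SD, n = 4 each), a difference of 3.61. Fabp3 over Fabp5 gained 3.54, Acot2 over Acot7 3.48, Acacb over Acaca 3.40, Gnao1 over Gnai2 3.12 and Ckmt2 over Ckb 3.08. Fabp5 held only 0.0348 to 0.459 CPM at D9, so its ratio leans on the 0.5 CPM added. The gain of Lmna over Lmnb1 came with a fall of both genes, and that of Acacb over Acaca with a small fall of Acaca (log2 -0.23). Smaller gains were those of Pgam2 over Pgam1 (2.67), Pygm over Pygb (2.52), Ldhb over Ldha (1.23), Slc25a4 over Slc25a5 (1.13), Slc2a4 over Slc2a1 (1.12) and Ckm over Ckb (1.00). Ckm itself was low and not called, as given above, so the gain of Ckm over Ckb came mainly with a fall of Ckb. Bcat2 over Bcat1 and Pfkm over Pfkp gained 0.72 each. Against the direction of these, Hk2 over Hk1 (-0.89) and Eno3 over Eno1 (-0.26, no longer called without D9 library 1, exact permutation adjusted p = 0.0603) were lower. Cpt1b over Cpt1a (0.15, exact permutation adjusted p = 0.4) and Cfl2 over Cfl1 (0.21, exact permutation adjusted p = 0.0603) were not called.

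**Figure D5:**
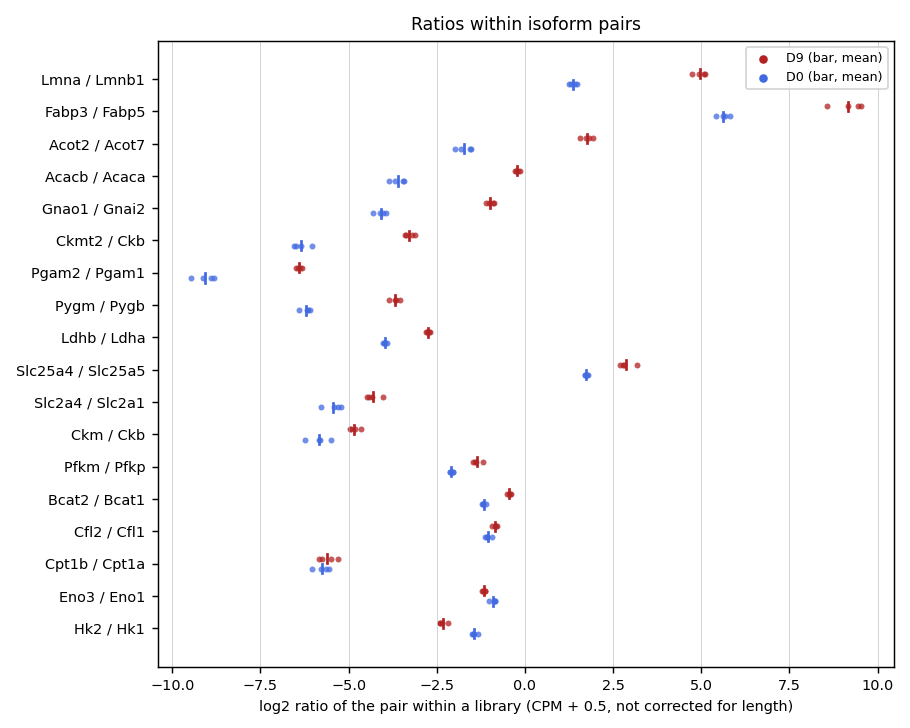
Log2 ratio within each of 18 pairs in each library (CPM + 0.5, not corrected for length, so only the shift between days can be read), with D9 in red above D0 in blue and a bar for each mean. Pairs are ordered by the difference, which runs from -0.89 for Hk2 over Hk1 at the bottom to 3.61 for Lmna over Lmnb1 at the top.

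The messenger pool became more concentrated. The 10 genes highest in TPM at D9 made up 17.3% ± 0.3 of all TPM at D9 and 6.17% ± 0.1 at D0 (SD, n = 4 each), led by Nppa with 58724 TPM at D9 and 20889 TPM at D0. The 10 highest at D0 made up 15.7% ± 0.2 at D9 and 7.73% ± 0.081 at D0. Outside the contractile genes, Clu, which encodes the secreted chaperone clusterin, entered the 10 highest at D9, with 6179 TPM at D9 and 1452 TPM at D0. In CPM, Clu measured 5816, 6900, 5848 and 5855 at D9, against 1120, 1152, 1133 and 1136 at D0 (log2 2.42). Serpinh1, the collagen chaperone, belonged to the 10 highest at D0 and not to those at D9, with 1018 TPM at D9 and 3433 TPM at D0. The elongation factor gene Eef1a1 gave opposite signs on the 2 scales, 2120 ± 88.0 CPM at D9 and 1880 ± 77.8 CPM at D0 (log2 0.17), but 2908 TPM at D9 and 3248 TPM at D0.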

How the data were processed

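RNA sequencing gave 1 library per sample. The signal table deposited by the authors holds reads per gene divided by an effective library size and multiplied to CPM. Every value of up to 20 reads (100%, within 0.1 read) was a whole multiple of 1 step per library, so whole reads were recovered. TPM were also deposited by the authors. edgeR 3.26.8 and the Rnor_6.0 build are named in the submitters' processing notes, with no role; an aligner or counter is not named there or in the labels, so shared reads of paralogs and overlapping genes are uncertain.

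Genes that reached 1 CPM in 4 or more of the 8 libraries were tested with limma 3.58.1 in R 4.3.3 on log2(CPM + 0.5), with Benjamini-Hochberg adjustment over all 11952, after a check on simulated data. The design had assumed CPM. The table's sums per library (1082475 to 1132075 at D9 and 899790 to 907717 at D0) differ from 1000000, so it was treated as a signal on a log scale. The count test of edgeR 4.0.16 on recovered reads, which called 9224 genes, other pseudocounts (0.1 and 2), no filter, other scalings, TPM, all 36 libraries, the replicate block and leaving out each library were alternatives.

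The lists, pairs and members were chosen with earlier results of these data known. The genes named are the 15 largest rises and falls with non-overlapping days, at least 5 CPM on the higher day and no placeholder or excluded name; in each list up to 4 members with the highest and 4 with the lowest change among those called, and the member highest in TPM; the pairs; and the 10 genes highest in TPM. Other members named were chosen after their values were seen. Some genes these rules name, and 1 of the pairs, are counted but not reported here. Promoters are RefSeq's for GRCr8 and matched 8633 tested genes by symbol.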

Additional observations from a re-analysis of the deposited data

Results flagged for a closer look

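In 49 of 548 groups of 4 libraries examined for the genes named in the report (8.94%, where chance gives about 1 in 20), a single library lay far from the other 3 of its day. D9 library 2 was that library in 27 of the 32 groups at D9, so these groups are not independent of each other. It was the highest of its day for Aunip (0.108 CPM), Bax (98.1), Bcat1 (89.6), Bcl2l1 (176), Ckm (5.01), Ckmt2 (19.1), Clu (6900), Cpe (1765), Ctps1 (238), G0s2 (309), Hk2 (92.2), Igfbp4 (17.9), Itga7 (342), Ldha (1607), Mfn2 (17.1), Pdhb (434), Pfkm (457), Tagln (10725), Txn2 (264) and Yars (91.2). It was the lowest for Bgn (757 CPM), Eda (26.4), Mpc1 (146), Nr3c2 (38.2), Pdk2 (124), Sntb1 (24.1) and Tuba1b (251). The other D9 values that stood apart were 9.79 CPM for Arntl and 51.4 CPM for Rarb in library 1, 63.6 CPM for Rab3b in library 3, and 140.0 CPM for Hibadh and 623 CPM for Scd2 in library 4.

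At D0, library 4 stood apart for Bax (62.9 CPM), Bcl2l1 (86.8), Chst2 (4.42), Ckb (215), Gas2l3 (172), Phka2 (13.3), Timm17a (58.3) and Vwf (1.49). Library 1 stood apart for Ada (19.8 CPM), Cep72 (33.0), Erfe (35.1), Kdr (15.0) and Sbk2 (0.575), library 2 for Rarg (39.0 CPM), and library 3 for Notch1 (15.2 CPM), Pdk2 (22.4) and Txn2 (76).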

How the results depend on the processing

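Of 274 genes named, 243 kept their direction and their side of the adjusted p of 0.05 under all 17 alternatives, and the scaling of the libraries changed most of the others. The number of changed genes, 9241, ranged between 8801 (without D0 library 2) and 9624 (without D9 library 2) when single libraries were left out. Higher genes then numbered 4264 to 4641 and lower ones 4537 to 4983, with 1285 to 1305 and 1755 to 1781 at least 2-fold. With TPM values 2708 genes were higher, against 4484 in CPM, and 787 against 1299 at least 2-fold. Quantile normalisation made 54.9% of the changed genes higher, with a median change of all genes of 0.08. In TPM, where all genes shift down (median -0.34), the signs of Bcat2 (-0.04), Eef1a1 (-0.16), Eno3 (-0.20), Gys1 (-0.07), Igf1r (-0.30), Ldha (-0.23), Ppm1k (-0.27), Qars (-0.11) and Ugp2 (-0.31) turned. Under quantile normalisation those of Acta2 (-0.08), Tagln (-0.20), Eef1a1 (-0.17), Eno3 (-0.06), Ldha (-0.33), Nppa (-0.13) and Vwf (0.20) turned, and the cause was not tested. Calls of Hk2, Ppard and Vwf were lost without one or another single library, and so was that of the Eno3 over Eno1 ratio without D9 library 1. The edgeR count test on recovered reads called 9224 genes. Levels under 0.5 CPM have their changes understated by the 0.5 added.

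Deviations of same-numbered D9 and D0 libraries from their day's mean correlated at 0.0586, -0.076, -0.042 and 0.18. Those of libraries with different numbers correlated at -0.157 to 0.128. With so few libraries a day, these values cannot decide whether the numbers pair the samples. With the replicate block, 9175 genes were called.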
